A study of Mus musculus with 6 samples.

Results

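The interferon regulatory factors (IRFs) examined here were the genes Irf1, Irf2, Irf3, Irf4, Irf5, Irf7 and Irf9. They were chosen by gene symbol from the IRF family, with Irf8 left out, and all 7 were found among the 41079 genes listed. RNA was sequenced from primary microglia of C57Bl/6N mouse pups aged 1 to 3 days, in 3 control and 3 optimized libraries. Both groups were unmodified wild-type cells that had been shaken off mixed glial flasks fed with L-929 conditioned medium, a source of M-CSF, and each flask pooled the brains of several pups. Control cultures were kept in serum-free DMEM/F12. Optimized cultures received human TGF-β1, human IL-34 and human CX3CL1 at 100 ng/mL each. The deposited labels name the cytokines alone, while insulin-transferrin-selenium, a coating of collagen IV and cholesterol come from the study's methods. The supplements were always given together, so their parts in any difference cannot be told apart.

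IRFs are transcription factors with a conserved DNA-binding domain that reads repeats of the sequence GAAA, the core of the interferon-stimulated response element (ISRE). IRF3 and IRF7 are phosphorylated after sensing of nucleic acids or endotoxin and switch on type I interferon genes. IRF9 is the DNA-binding subunit of ISGF3, the complex that carries the type I interferon signal to ISREs, while IRF1 acts mainly in the response to interferon-γ. In microglia, the brain's resident macrophages, these factors are known for antiviral and inflammatory programmes, and IRF8 is a factor of the lineage itself.

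The promoters of Irf1, Irf2 and Irf7 are shown because Irf1 and Irf7 had the largest differences past the threshold and Irf2 is the close relative of Irf1. Each runs from 250 bases before to 50 bases after the annotated start of the canonical transcript (GENCODE M39, GRCm39), 5′ to 3′ on the gene's strand. Capitals mark matches on either strand to the ISRE core GAAANNGAAA, to the interferon-γ-activated site TTCNNNGAA, called GAS, or to the kappaB motif of NF-κB.
Irf1, chr11:53660591-53660890, plus strand: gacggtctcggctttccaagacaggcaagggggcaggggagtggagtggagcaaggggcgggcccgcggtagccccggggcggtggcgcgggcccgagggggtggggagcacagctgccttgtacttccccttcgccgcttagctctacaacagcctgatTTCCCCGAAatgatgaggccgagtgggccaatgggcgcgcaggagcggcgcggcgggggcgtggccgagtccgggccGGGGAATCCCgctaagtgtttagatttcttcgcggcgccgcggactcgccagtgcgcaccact
Irf2, chr8:47192510-47192809, plus strand: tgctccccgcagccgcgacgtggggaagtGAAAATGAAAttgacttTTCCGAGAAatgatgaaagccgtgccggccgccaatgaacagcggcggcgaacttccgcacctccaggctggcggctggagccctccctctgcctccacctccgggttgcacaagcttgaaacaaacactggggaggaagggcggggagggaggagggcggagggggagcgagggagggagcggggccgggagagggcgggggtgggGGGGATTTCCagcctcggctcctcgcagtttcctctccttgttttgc
Irf7, chr7:140846349-140846648, minus strand: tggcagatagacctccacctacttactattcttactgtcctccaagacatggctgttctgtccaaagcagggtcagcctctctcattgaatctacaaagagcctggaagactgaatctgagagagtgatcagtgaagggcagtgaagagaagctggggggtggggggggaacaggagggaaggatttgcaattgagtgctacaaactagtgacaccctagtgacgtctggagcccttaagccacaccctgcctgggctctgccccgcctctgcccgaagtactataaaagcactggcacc
In the Irf1 window the capitals are a GAS match at positions -90 to -82 from the start and a kappaB match at -13 to -4. In the Irf2 window they are an ISRE match at -221 to -212, a GAS match at -204 to -196 and a kappaB match at 4 to 13. The Irf7 window held none of these letters. Over all 7 genes, 1 held an ISRE, 2 a GAS and 3 a kappaB match in the window, Irf3 being the third with kappaB, and no matches of different motifs overlapped. Of the 21751 promoters of protein-coding genes, 3.84% held the ISRE, 8.81% the GAS and 4.87% the kappaB motif. A match is a run of letters and not a measured binding site.

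**Figure D1:**
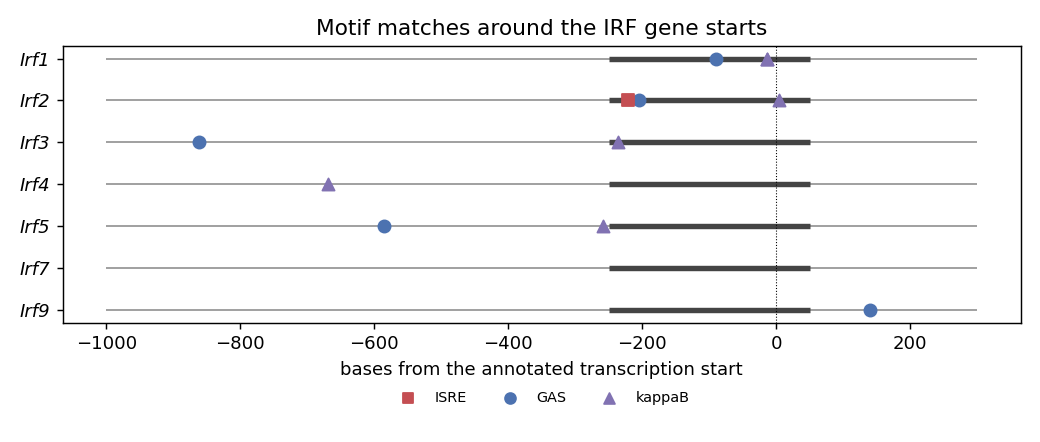
Motif matches by distance in bases from the annotated start, 1 line per gene, from 1000 bases before to 300 after, with the printed window drawn thick. Irf2 carries the only ISRE match, and Irf7 has no match in the wider window.

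Libraries held 20628148 to 27261839 counted reads. Levels are given as CPM, counts scaled to a common library total with the TMM factors of edgeR, and differences as log2 fold changes of optimized against control cultures with their standard errors (SE). A gene was called where edgeR's quasi-likelihood test gave a Benjamini-Hochberg adjusted p under 0.05 over the 14618 genes tested. Libraries of 1 condition differed by more than sampling noise. The study calls its replicates independent biological ones, and the labels do not say which cultures the libraries came from, so p-values measure the spread between these libraries. Of 10 microglia and macrophage markers, all were detected, and together they made 7480 to 7820 CPM in control and 13000 to 16000 CPM in optimized libraries. Summed astrocyte markers made 32.1 to 35.3 CPM in control and 21.4 to 25 CPM in optimized libraries, and oligodendrocyte markers 125 to 140 and 156 to 190 CPM, with 1 of 5 genes called in each list. The astrocyte gene called was Aldh1l1, with means of 16.5 CPM in control and 4.64 CPM in optimized libraries. Among the other 4, Gfap and Gja1 had log2 fold changes of 0.16 and 0.49, and Aqp4 and Slc1a3 -0.20 and -0.51. The oligodendrocyte gene called was Mbp, with 0.34. Markers of neurons, endothelial cells, lymphocytes and granulocytes summed to at most 6.29 CPM per list and library. The part of such cells in the IRF values was not tested. In these bulk samples, fewer cells of a type and less RNA per cell cannot be told apart.

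Under optimized conditions 5 of the 7 IRF genes fell, 0 rose, and Irf3 and Irf4 did not pass the threshold. Over all genes tested, 15.2% were called lower and 14.7% higher. The median log2 fold change of the 7 genes was -0.49, against 0.0079 over all genes tested. Every optimized library lay below every control library in 6 of the 7 genes, a pattern found in 22.5% of all genes tested, while in 43.9% the groups did not overlap in either direction. The changes came in different sizes. Irf7 and Irf1 fell most, with log2 fold changes of -1.77 and -1.58. A call at or below a log2 fold change of -1 was made for 5.11% of all genes. Irf5, Irf2 and Irf9 fell by 0.49, 0.42 and 0.30 on the log2 scale.

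**Figure D2:**
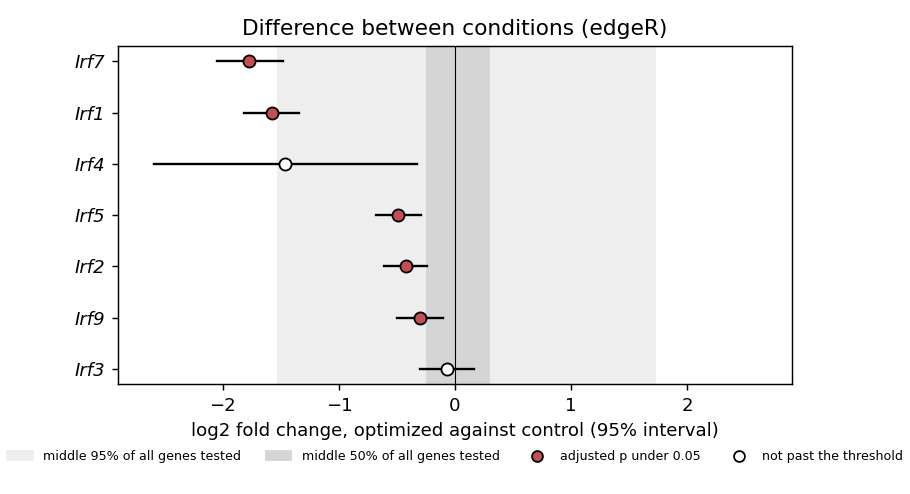
Log2 fold change of each IRF gene, optimized against control, with its 95% interval from edgeR, over grey bands that hold the middle 50% and 95% of all genes tested. Irf7 and Irf1, at -1.77 and -1.58, lie beyond the lower end of the wide band at -1.52, and the interval of Irf3 spans 0.

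Irf7, the factor that amplifies type I interferon production and is itself interferon-inducible, lies on chromosome 7 of GRCm39 from 140842619 to 140846398. It had 196, 190 and 213 CPM in control libraries 1 to 3 and 54.6, 50.8 and 70.7 CPM in optimized libraries 1 to 3. The groups were far apart, the highest optimized library being well under the lowest control library. The log2 fold change was -1.77 (SE 0.13, adjusted p = 4.7e-06 by edgeR's quasi-likelihood test), which leaves 29.4% of the control level with a 95% interval from 24.1% to 35.7%. Only 1.8% of all genes tested had a lower log2 fold change.

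Irf3, the latent factor that is kept ready in most cells and acts after phosphorylation rather than induction, lies on chromosome 7 from 44647033 to 44652272. It had 46.3, 48.3 and 48.8 CPM in control and 39.4, 50.7 and 46.5 CPM in optimized libraries. The groups overlapped, with optimized library 2 the highest and optimized library 1 the lowest of the 6. Its log2 fold change was -0.069 (SE 0.10, adjusted p = 0.68 by edgeR's quasi-likelihood test), with a 95% interval from -0.30 to 0.16, and 0.026 without optimized replicate 1. A fall to less than 81.1% or a rise above 112% of the control level lies outside this interval.

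Irf1, an activator of interferon-γ response genes, lies on chromosome 11 from 53660812 to 53669200. It had 88.5, 102 and 95.8 CPM in control and 27.9, 32.6 and 35.4 CPM in optimized libraries. No libraries overlapped, and the optimized level was 33.5% of control, with a 95% interval from 28.4% to 39.6%. On the log2 scale the fold change was -1.58 (SE 0.11, adjusted p = 3.4e-06 by edgeR's quasi-likelihood test). Irf2, which binds the same sites as IRF1 and mostly represses them, lies on chromosome 8 from 47192222 to 47300501. Its levels were 70.0, 68.2 and 74.9 CPM in control and 53.8, 53.8 and 51.1 CPM in optimized libraries. Here too the groups were apart, by a smaller step and with little spread. The log2 fold change was -0.42 (SE 0.08, adjusted p = 0.0029 by edgeR's quasi-likelihood test), or 74.5% of control.

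Irf9, the DNA-binding subunit of ISGF3, lies on chromosome 14 from 55841028 to 55847812. It had 74.9, 74.5 and 80.3 CPM in control and 57.9, 61.1 and 67.4 CPM in optimized libraries. The groups did not overlap, but the step was the smallest among the called genes. The log2 fold change was -0.30 (SE 0.09, adjusted p = 0.028 by edgeR's quasi-likelihood test), or 81.1% of control. The call was lost without control replicate 1, 2 or 3, where edgeR's adjusted p was 0.069, 0.069 and 0.11. Irf9 shares 282 exon bases with Rnf31 on the same strand. Rnf31 was itself called lower, with a log2 fold change of -0.33 and 0.613 times the mean count of Irf9. The part of shared reads in the Irf9 value was not tested.

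Irf5, which acts with the adaptor MYD88 behind Toll-like receptors and drives inflammatory cytokine genes, lies on chromosome 6 from 29526276 to 29541870. It had 242, 234 and 248 CPM in control and 156, 180 and 179 CPM in optimized libraries, the most reads of the 7 genes in every library. Control and optimized libraries were apart by more than the spread in either group. Its log2 fold change was -0.49 (SE 0.09, adjusted p = 0.002 by edgeR's quasi-likelihood test), which leaves 71.3% of control with a 95% interval from 62.2% to 81.6%.

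Irf4, best known from lymphocytes and from alternatively activated macrophages and a competitor of IRF5 for MYD88, lies on chromosome 13 from 30933209 to 30950959. It was close to the detection limit, with 23, 18 and 25 counts in control and 4, 14 and 3 counts in optimized libraries. All optimized libraries were below the control libraries in CPM, but optimized library 2 stood near the controls and the other optimized libraries far below. Irf4 entered the test through the control libraries and optimized library 2, where alone it reached the count minimum. The log2 fold change was -1.46 (SE 0.51, adjusted p = 0.055 by edgeR's quasi-likelihood test) and did not pass the threshold. Without optimized replicate 2 it was -2.37, with an adjusted p of 0.0081 from the same edgeR test. Markers of conventional dendritic cells, another cell type that uses IRF4, summed to 8.16 to 8.61 CPM in control and 4.5 to 5.49 CPM in optimized libraries. Of the 5 markers 1 was tested and fell, Zbtb46 with a log2 fold change of -0.79. Xcr1 and Clec9a were detected but too low to be tested, Xcr1 ranging from 2 to 11 reads per library and Clec9a from 0 to 6. Flt3 and Cd209a were at 0 in every library. The 4 B and plasma cell markers summed to at most 0.379 CPM in any library. The part of such cells in the Irf4 value was not tested.

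Levels can be compared between genes only per length. In the deposited FPKM values, which are counts per kilobase of gene scaled to the library's total, Irf7 was the highest of the 7 genes in control cultures, at 102 to 107. Irf5 followed at 32.1 to 33.3, then Irf1 at 27.3 to 31.5 and Irf9 at 28.8 to 29.1, whose ranges overlapped. Irf3 at 18.8 to 19.8, Irf2 at 5.65 to 5.81 and Irf4 at 0.159 to 0.217 completed the order. In optimized cultures Irf7, at 23.1 to 34.2, was still the highest of the 7 in each library on the FPKM scale. Irf5 at 19.8 to 22.3 and Irf9 at 20.0 to 23.4 overlapped next to it, and Irf1, at 7.93 to 9.86, dropped below Irf3 at 14.9 to 17.6. The Irf3 libraries, which overlapped between conditions in CPM, did not overlap in FPKM, which lacks the TMM scaling. The sum over the 7 genes was 220 to 221 FPKM in control and 94.2 to 111 FPKM in optimized libraries.

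**Figure D3:**
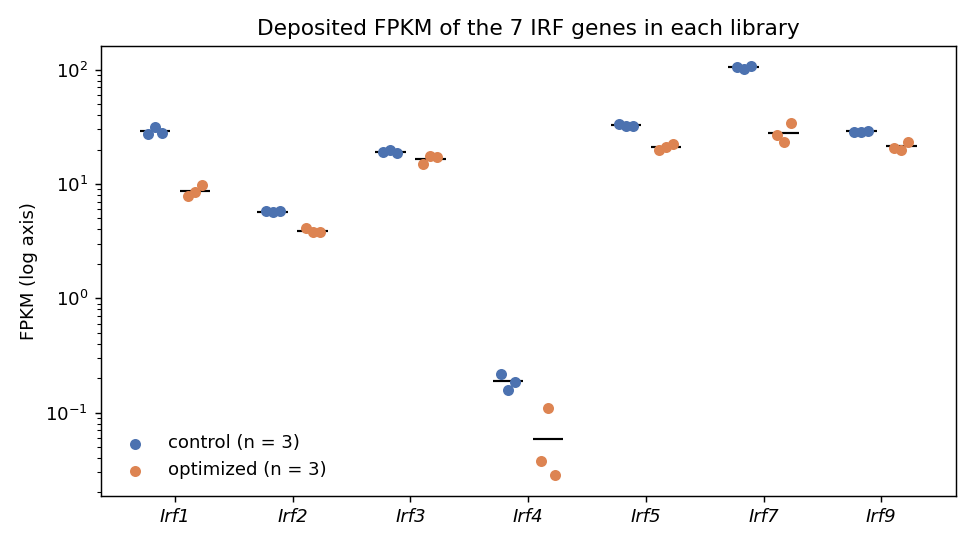
Deposited FPKM of the 7 genes on a log axis, 1 point per library and a bar at the mean of 3. Irf7 leaves the range of 102 to 107 for 23.1 to 34.2, Irf3 moves little, from 18.8 to 19.8 to 14.9 to 17.6, and Irf4 is at most 0.217 throughout.

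The order depended on the gene length used. The FPKM values imply a length of about 12.9 kb for Irf2 and 7.71 kb for Irf5, whereas their canonical transcripts have 2.51 and 2.19 kb. For Irf7 and Irf9 the implied lengths of 1.99 and 2.76 kb were near the 2.40 and 2.78 kb of the transcript. Per kilobase of canonical transcript, Irf5 came first in control libraries with 107 to 113 CPM per kb, ahead of Irf7 with 79.3 to 88.9. On that scale Irf2 at 27.1 to 29.8 overlapped with Irf9 at 26.8 to 28.8. Irf7 was no longer highest in optimized libraries on this scale, its 21.2 to 29.5 CPM per kb overlapping with Irf9, Irf3 and Irf2 and lying below Irf5 at 71.3 to 82.3. Irf1 fell from 41.4 to 47.6 CPM per kb, above Irf2 and Irf9, to 13.1 to 16.6 in optimized libraries, where it was the lowest of the 7 but Irf4.

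The family member of the microglial lineage went the other way. Irf8, which was not part of the selection, had 267, 244 and 259 CPM in control and 345, 397 and 385 CPM in optimized libraries, a log2 fold change of 0.55 (SE 0.09, adjusted p = 0.0011 by edgeR's quasi-likelihood test). In FPKM it was below Irf7 in every control library, at 73.5 to 80.4, and above it in every optimized library, at 95.7 to 105.

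Ratios of raw counts within a library need no scaling between libraries. They were taken for the activator and repressor that share sites, for the paralogs that act after nucleic acid sensing, and for the competitors for MYD88. The ratio of Irf1 to Irf2 was 1.26, 1.49 and 1.28 in control and 0.519, 0.605 and 0.693 in optimized libraries. Irf1 thus had more reads than Irf2 in all control libraries and fewer in all optimized libraries, a change of 2.23-fold. The ratio of Irf7 to Irf3 was 4.24, 3.94 and 4.36 in control and 1.39, 1.00 and 1.52 in optimized libraries, 3.26-fold lower. In both pairs the groups did not overlap. Each gave a two-sided p = 0.1 by exact permutation, below which 3 against 3 libraries cannot go, and 0.15 after adjustment over the 3 pairs. The ratio of Irf4 to Irf5 was 0.00416, 0.00314 and 0.0037 in control and 0.00121, 0.00331 and 0.00081 in optimized libraries. These groups overlapped through optimized library 2, and the exact permutation test gave p = 0.2. The ratio of Irf8 to Irf7, added after the values were seen and not tested, was 1.22 to 1.36 in control and 5.45 to 7.8 in optimized libraries.

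**Figure D4:**
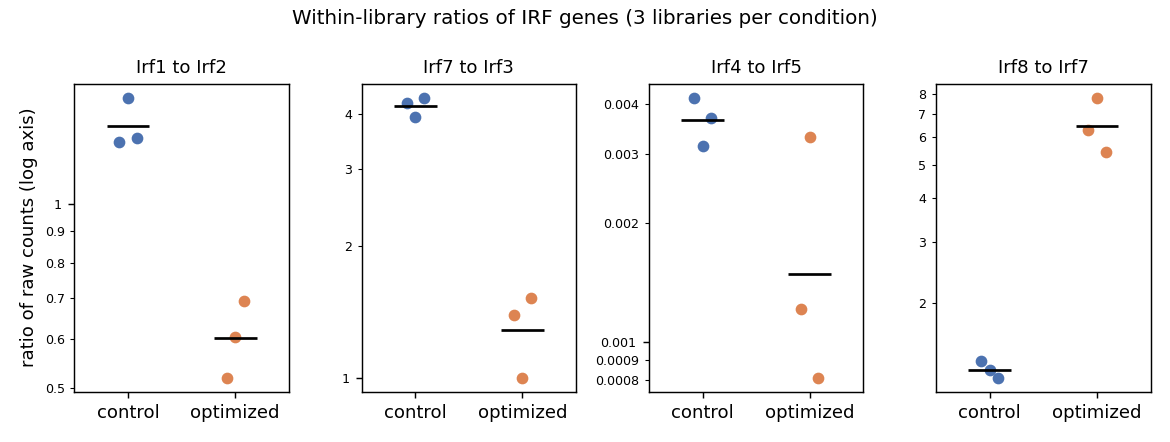
Ratio of raw counts of a pair of genes within each library, on log axes that differ between panels, with a bar at the geometric mean of 3 libraries. Irf1 to Irf2 falls from at least 1.26 to at most 0.693 and Irf7 to Irf3 from at least 3.94 to at most 1.52, while the optimized points of Irf4 to Irf5 are spread.

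The other genes of the pathway were read from lists written from general knowledge, but with earlier results of these data known, so their counts are a description. Over these lists 110 of 139 genes were tested, of which 68 were lower and 12 higher, beside 15.2% lower and 14.7% higher over all genes tested. Their median log2 fold change was -0.58, against 0.0079 over all genes. Of 21 interferon ligand genes 17 had no count in any library, and the list summed to 0 to 8 counts per library. Ifng had no count, and Ifnb1 had 3 counts in control library 3, 1 in optimized library 1 and 0 in the others. A count of 0 allows up to 3 counts, so a difference in interferon transcripts was not detectable at this depth.

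Of 5 tested interferon receptor genes 1 fell and 1 rose, shares near the 15.2% and 14.7% of all genes tested. Ifngr1, the ligand-binding chain of the interferon-γ receptor, had 297 ± 8.66 CPM in control and fell to 124 ± 11.9 CPM in optimized libraries (SD, n = 3). Ifnar2, a chain of the type I interferon receptor, rose from 112 ± 5.59 to 189 ± 26.3 CPM, and the other 3 did not pass the threshold. Of the 10 JAK-STAT genes, 5 fell and 1, Stat3, rose. Stat2, a partner of IRF9 in ISGF3, fell with a log2 fold change of -0.91. Tyk2, a kinase of the type I receptor, and Usp18, a brake on that receptor, had -0.58 and -0.77.

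Of 26 sensors and adaptors upstream of IRFs, 14 fell, 11 did not pass, and Traf6 rose with a log2 fold change of 0.40. Ikbke, a kinase that phosphorylates IRF3 and IRF7, fell from 261 ± 15.8 to 54.0 ± 4.77 CPM, which was -2.27 on the log2 scale (errors are SD over 3 libraries). The cytosolic RNA sensors Rigi, Dhx58 and Ifih1 had -1.35, -1.11 and -0.93. Tbk1 and Myd88, singled out after their values were seen as the other IRF3 kinase and the IRF5 adaptor, had -0.44 and -0.89, both called. Mavs, Chuk and Tlr9 were among those that did not pass. Of 20 partners and regulators, 9 fell and 4 rose, the latter a share near the 14.7% of all genes. Batf2, a partner of IRF1, fell most with -3.04, Trim21 and Batf3 had -0.84 and -0.75, and the coactivator Crebbp rose with 0.77. Batf2 had 67, 108 and 101 counts in control and few, at 8, 12 and 9, in optimized libraries. The median of this list was -0.25.

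The lists of targets held genes that IRFs are known to bind or switch on. Of 20 ISRE-driven interferon-stimulated genes 18 fell, with a median log2 fold change of -1.76, Cmpk2, Rsad2, Oasl1 and Ifit2 having -2.92, -2.60, -2.21 and -2.17. Ifi27 rose with 0.59, and Bst2 did not pass. Of 18 antigen presentation and guanylate-binding protein (GBP) genes linked to IRF1, 15 fell and 0 rose, with a median of -0.97. Gbp5, Gbp7, Cxcl9 and Gbp2 had -4.51, -4.37, -4.06 and -3.78, and the GBP paralogs are similar enough in sequence that their reads may be split uncertainly. Cxcl9 was tested only through the control libraries, its reads falling from 62, 79 and 117 to 2, 3 and 8 with the supplements. Of 8 cytokines linked to IRF5, 5 were tested, 4 fell and Il6 rose, and Il1b had -3.33. Counts of Il6 were low, at 6, 7 and 9 without and 30, 29 and 32 with the supplements, and Il6 was tested only through the optimized libraries. Of 10 alternative activation genes linked to IRF4, 6 were tested. Arg1, Socs2 and Il4ra rose and Mrc1 and Clec10a fell. Log2 fold changes ran from -3.63 for Clec10a to 2.89 for Arg1, both of which had few counts. Arg1 was tested only through the optimized libraries, its reads being 26, 14 and 14 there against 3, 3 and 2 without the supplements. Clec10a was tested only through the control libraries, its reads being 24, 35 and 16 there against 4, 0 and 1 with the supplements. Counts in the small lists moved with the processing. Stat3 and Traf6, the only genes higher in their lists, were not called with library size alone.

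**Figure D5:**
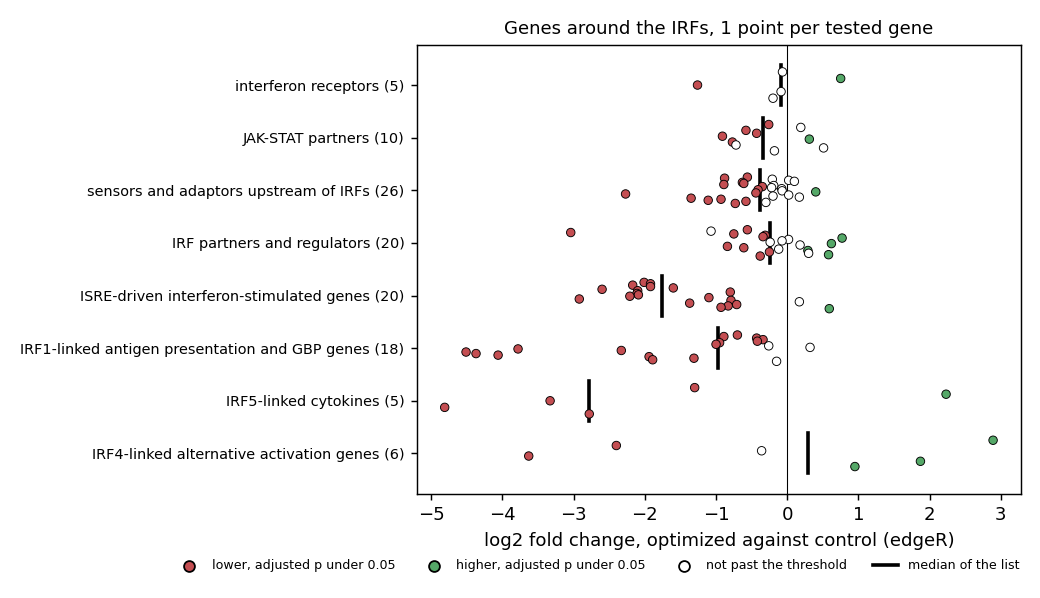
Log2 fold change of each tested gene, optimized against control, by list, with a bar at the list's median and the number of genes tested in brackets. The medians lie at -0.087 for receptors, -1.76 for the ISRE-driven genes and -2.78 for the IRF5-linked cytokines, and the IRF4-linked genes spread on both sides of 0.

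The genes most like each IRF were found by the root mean square (RMS) difference of log2 CPM profiles over the 6 libraries, each centred on its own mean, among 9830 genes with at least 5 CPM on average. With 2 conditions this likeness mainly reflects a similar step, and it is given as a description. Nearest to Irf7 were Cd300ld4 and Casp4 (RMS difference 0.068 and 0.083), and nearest to Irf1 were Sod2 and Pmp22 (0.067 and 0.069). Galnt2 and Dusp7 were nearest to Irf5 (0.022 and 0.025), Acsl1 and Hsp90ab1 to Irf9 (0.017 and 0.021), and Shkbp1 and Cenpb to Irf3 (0.014 and 0.016). Irf2 was nearest to Mir12188 and Wtap (0.024 and 0.026), the former a microRNA precursor gene whose reads cannot be told from those of a longer transcript. Irf4 had no close match, Ube2c and Hmmr being nearest at 0.297 and 0.320. Among the IRFs themselves, Irf2 and Irf5 differed by 0.091 and Irf1 and Irf7 by 0.173, whereas Irf7 and Irf3 differed by 0.871.

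Other overlapping genes share exon bases with the IRFs on the opposite strand, and the strand setting of the counting is not given in the sources used here. Scaf1, with 2.28 times the mean count of Irf3, shares 22 bases with it and had a log2 fold change of 0.044. Phrf1 shares 63 bases with Irf7 and Tnpo3 shares 416 with Irf5, and they had -0.034 and -0.076. None of these 3 neighbours was called. Gm12216, antisense to Irf1 over 619 bases, had 0.0064 times its mean count and was itself called lower, with a log2 fold change of -2.24. It had few counts and was tested only through the control libraries. The part of shared reads in these IRF values was not tested.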

How the data were processed

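Paired-end reads had been aligned with HISAT2 to mm39 and assigned to genes by featureCounts on the Galaxy server, as the paper's methods and the labels give it. The tool versions, the annotation and the strand setting are not given in the sources used here. The authors deposited raw counts and FPKM values for the 6 libraries; each FPKM was the count times a constant of the gene and of the library, within 1% in all of 11141 genes checked. Columns were tied to samples by the column names in the labels.

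The main test on the counts was the quasi-likelihood test of edgeR 4.0.16 under R 4.3.3 (filterByExpr, TMM, condition as the single term), with a threshold of 0.05. The SE was obtained from the log2 fold change and its F statistic, and 95% intervals use the test's degrees of freedom. DESeq2 1.42.0, limma 3.58.1 on log2(FPKM + 1) or log2(FPKM + 0.1), and further settings served as alternatives. Scripts were tested on simulated counts. Exact permutation tests used scipy 1.17.1. Coordinates and promoters are from GENCODE M39 (GRCm39, identical to mm39). Library totals of 20628148 to 27261839 limit precision mainly for Irf4. The IRF genes and gene lists were chosen with earlier results of these data known. Genes named are the 7 IRFs, Irf8, up to 4 called genes with the largest change per list, the 2 nearest profiles per IRF, and overlapping genes. Protein sequences were not used here, and some items that this rule names are not reported here.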

Additional observations from a re-analysis of the deposited data

How the results depend on the processing

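Irf1, Irf2, Irf5 and Irf7 kept their direction and their call under every alternative run. Over the settings that kept all libraries, their log2 fold changes were -1.71 to -1.57, -0.55 to -0.42, -0.63 to -0.48 and -1.92 to -1.76. When single libraries were left out, they were -1.66 to -1.49, -0.46 to -0.39, -0.53 to -0.42 and -1.92 to -1.68. With single libraries left out, the 7 IRF genes gave 4 to 6 calls of lower and 0 of higher. Irf3 ranged from -0.16 to 0.026 with single libraries left out and reversed, at 0.026, without optimized replicate 1. Irf4 ranged from -2.37 to -1.14 in the same way and passed the threshold without optimized replicate 2. It also passed when scaled by library size alone (-1.61), in limma on log2(FPKM + 1) (-0.17) and on log2(FPKM + 0.1) (-0.89). It gave no value with at least 10 counts in every library or a mean FPKM of at least 1. Irf9 ranged from -0.36 to -0.25 with single libraries left out and lost its call without control replicate 1, 2 or 3. With single libraries left out, the log2 differences of ratios ranged from -1.26 to -1.05 for Irf1 to Irf2, -1.83 to -1.53 for Irf7 to Irf3 and -1.88 to -0.86 for Irf4 to Irf5. Computed on FPKM + 0.1 they were -1.16, -1.70 and -0.26, the last against -1.30 on raw counts. Library size alone moved the median of all genes from 0.0079 to -0.12 and the calls to 3168 lower and 1513 higher, and limma on FPKM moved it to between -0.16 and -0.087. The cause of the other shifts was not tested. Receptors called lower were 2 with library size alone, 3 with limma on log2(FPKM + 1), and 2 with log2(FPKM + 0.1), with or without a mean FPKM of at least 1. JAK-STAT genes called higher were 0 with library size alone and all 3 limma settings, and 2 with DESeq2, no filter or the replicate block. Sensors called higher were 0 with library size alone and all 3 limma settings. IRF5-linked genes called higher were 0 with at least 10 counts in every library or a mean FPKM of at least 1, and IRF4-linked genes called lower were 1 in both. With a mean FPKM of at least 1, IRF4-linked genes called higher were 1. With single libraries left out, JAK-STAT calls were 0 to 2 higher and 3 to 6 lower, sensors 0 to 1 higher and ISRE-driven genes 1 to 2 higher. Libraries carry the same numbers in both conditions, and the sources used here do not say whether same-numbered ones are paired. Their deviations from the group mean correlated at 0.273, -0.0123 and 0.185, against -0.294 to 0.189 between differently numbered ones. The replicate block gave 2523 lower and 2401 higher genes and changed no IRF call.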

Other observations

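The IRF2-binding proteins, corepressors named for their contact with IRF2, included 1 gene past the threshold. Irf2bpl had 63.7 ± 1.62 CPM in control and rose to 97.8 ± 9.28 CPM in optimized libraries (SD, n = 3), which was 0.62 on the log2 scale (SE 0.09, adjusted p = 0.00059 by edgeR's quasi-likelihood test). Irf2bp2 had 122 ± 6.26 and 103 ± 7.10 CPM and a log2 fold change of -0.24, and Irf2bp1 had -0.073, neither past the threshold. These genes were singled out after their values were seen.

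Fibroblast markers were highest in optimized library 3, with a sum of 119 CPM against 23.8 to 38.8 CPM in the other 5 libraries. Their part in the IRF values was not tested.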
